A study of Mus musculus with 12 samples.

Results

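The 40 genes described here act in mitosis and at the passage from G2 phase into mitosis, and they were chosen by symbol. All 40 were found in a table of 24619 gene symbols measured in 12 libraries of mouse cells, and all 40 were among the 14400 genes that passed a filter on low counts. Messenger RNA was sequenced from primary mouse cardiac fibroblasts, which make the collagen matrix of heart muscle, grown with 10% serum, starved for 12 h and then kept for 24 h in conditioned medium, which is medium that other cells have released material into. Those other cells were adipocytes infected with lentivirus, and each of the 4 groups holds 3 libraries.

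In OE_CM the adipocytes overexpressed the human microRNA hsa-miR-548ay. In TGF_KD_CM the fibroblasts received TGF-beta1, a cytokine that turns fibroblasts towards matrix production, with medium of adipocytes carrying an inhibition virus against that microRNA. In TGF_VEC_CM they received TGF-beta1 with medium of vector adipocytes, and in VEC_CM medium of vector adipocytes alone. Lentiviral infection of the adipocytes is thus common to all 4 groups. OE_CM and VEC_CM, like TGF_KD_CM and TGF_VEC_CM, differ by the medium, and TGF_VEC_CM and VEC_CM by TGF-beta1 given to the fibroblasts. Groups follow the sample titles: for replicates 2 and 3 of OE_CM and of TGF_KD_CM the treatment field gives miR-549ay or miR-550ay instead. The labels give no species for the adipocytes, place OE_CM and VEC_CM in another part of the study than the TGF-beta1 groups, and leave unsaid if both parts were handled on the same occasion. Nothing states that libraries of a group are separate cultures, so p-values reflect only how far these libraries spread, possibly for technical reasons.

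Entry into mitosis is set by Cdk1, a kinase that is active only with a cyclin partner and after Cdc25 phosphatases remove its inhibitory phosphates. The spindle then captures chromosomes at their kinetochores, and a checkpoint holds back the anaphase-promoting complex, a ubiquitin ligase, until all are attached. Most of these genes are transcribed in G2 and M phase under the transcription factor Foxm1 and the MuvB complex, so their RNA is commonly read as a sign of dividing cells, and cardiac fibroblasts divide readily in serum and in the injured heart.

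Library totals lay between 33379207 and 37226153 counts, and 3 counts, the floor used here, stood for at most 0.0939 CPM (counts made comparable by dividing through library size). Replicate pairs correlated with r = 0.997 across genes, and their counts differed by more than sampling noise (chi-square per gene 2.93 to 4.29), so no library was a copy of another. Of the fibroblast markers Col1a1, Col1a2, Vim, Ddr2 and Pdgfra were expressed in all groups (Pdgfra, the lowest of these, had a mean of 96.0 CPM in OE_CM and 194 CPM in VEC_CM), but Thy1 averaged at most 0.366 CPM, Dcn at most 0.146 CPM and Lum at most 0.00941 CPM in any group. Of the 6 fibroblast markers tested 1 was called higher and 2 lower in OE_CM against VEC_CM, 3 and 0 in TGF_KD_CM against TGF_VEC_CM, and 1 and 2 in TGF_VEC_CM against VEC_CM; Tcf21 was not analysed here. Acta2, the smooth muscle actin that activated fibroblasts also make, averaged at most 0.592 CPM in any group. These levels go against what is usual for cardiac fibroblasts, so the cells are called fibroblasts here only as labelled.

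Summed markers of other cell types differed between groups. The 5 adipocyte markers summed to 97.4 to 101 CPM in OE_CM, 152 to 163 CPM in TGF_KD_CM, 186 to 198 CPM in TGF_VEC_CM and 264 to 279 CPM in VEC_CM, nearly all of it Fabp4, while Lep averaged at most 0.00894 CPM. The 5 measured cardiomyocyte markers summed to 163 to 167 CPM in OE_CM, 97.3 to 104 CPM in TGF_KD_CM, 105 to 116 CPM in TGF_VEC_CM and 70.1 to 75.2 CPM in VEC_CM, nearly all of it Tnnt2, while Myh6 averaged at most 0.0727 CPM and Tnni3 at most 0.00997 CPM. The 6 leukocyte markers summed to 16.4 to 26.9 CPM in OE_CM, 22.6 to 24.8 CPM in TGF_KD_CM, 28.0 to 30.5 CPM in TGF_VEC_CM and 34.9 to 36.5 CPM in VEC_CM, with Cd3e at most 0.00937 CPM. The 5 smooth muscle and pericyte markers summed to at most 43.7 CPM and the 5 endothelial markers to at most 1.11 CPM in any library. Between 0 and 3 genes of each of these lists passed the test in any direction of any comparison, and the part of other cells in the results below was not tested.

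In level per transcript length, as FPKM (fragments scaled to gene length and library total), the 40 genes spanned a wide range. Racgap1, a GTPase-activating protein of the central spindle, was highest in 3 of the 4 groups, with 225 ± 4.34 FPKM in OE_CM, 224 ± 6.41 FPKM in TGF_KD_CM, 234 ± 1.5 FPKM in TGF_VEC_CM and 249 ± 0.961 FPKM in VEC_CM (SD, n = 3 each). Top2a, the topoisomerase that untangles sister chromatids, stood at 189 ± 1.26 FPKM in OE_CM, 222 ± 4.8 FPKM in TGF_KD_CM, 245 ± 5.58 FPKM in TGF_VEC_CM and 201 ± 3.11 FPKM in VEC_CM, and so was above Racgap1 in TGF_VEC_CM and within its spread in TGF_KD_CM. Ube2c, the ubiquitin-conjugating enzyme of the anaphase-promoting complex, followed with means of 189, 167, 165 and 181 FPKM in the same order of groups.

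At the low end of the FPKM scale stood Cdc25c, a phosphatase that activates Cdk1, with 9.10 ± 0.846 FPKM in OE_CM, 9.87 ± 0.645 FPKM in TGF_KD_CM, 9.18 ± 0.636 FPKM in TGF_VEC_CM and 10.4 ± 0.479 FPKM in VEC_CM. Many neighbours in the order could not be separated: in VEC_CM Cdc20 (89.0 ± 2.16 FPKM in VEC_CM) and Prc1 (88.0 ± 0.712 FPKM in VEC_CM) lay within their spread. No member was near the floor in any library. The summed CPM of the 40 genes was 10093 ± 152 in OE_CM, 9531 ± 268 in TGF_KD_CM, 9412 ± 85.7 in TGF_VEC_CM and 10418 ± 168 in VEC_CM (SD, n = 3 each). The genes do not stand alone in the annotation: 17 of the 40 overlap another annotated gene, such as Oip5 at Nusap1, Elovl1 at Cdc20 and Cdc23 at Kif20a, and Ccnb1, Ccnb2 and Kif4 have pseudogenes named after them. The strand setting of the counting is not given in the sources used here, so reads of such pairs could not be told apart and these counts carry that uncertainty.

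**Figure D1:**
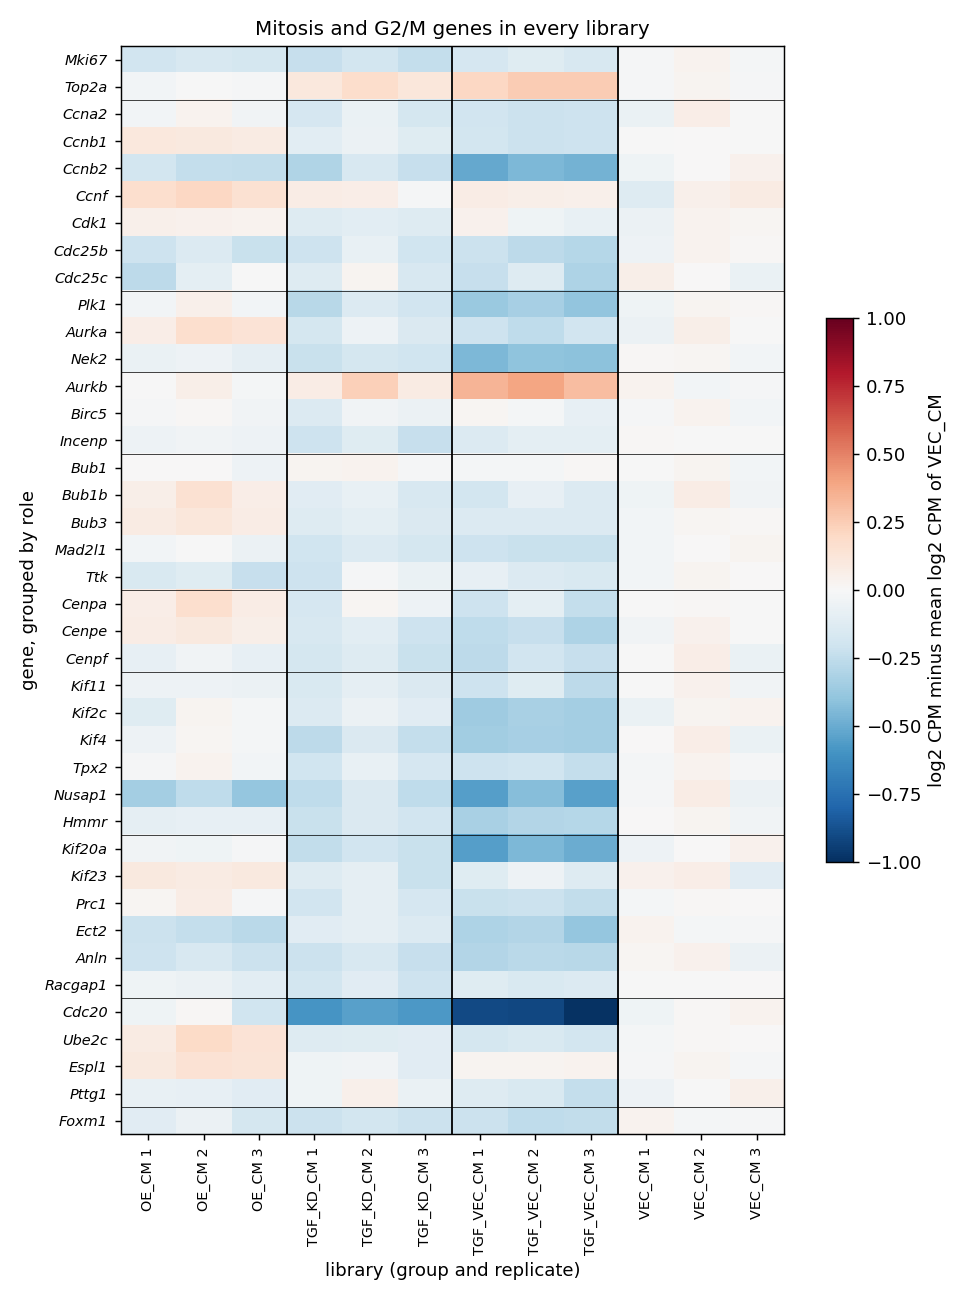
Heat map of the 40 genes (vertical axis, grouped by role) in each of the 12 libraries (horizontal axis). Colour gives log2 CPM minus the mean log2 CPM of VEC_CM; Cdc20, Nusap1, Kif20a and Ccnb2 are darkest blue in TGF_VEC_CM, where Aurkb and Top2a are red.

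Promoters of G2 and M phase genes commonly carry CCAAT boxes, bound by the factor NF-Y, and CHR elements, bound by MuvB complexes, so the start-site windows of the members were searched for both. A RefSeq table (GRCm38.p6) held a window for 33 of the 40 members, from 250 bases before to 50 after a start site; it held none for Ccna2, Aurkb, Incenp, Cdc25c, Kif20a, Foxm1 and Tpx2. For Bub3, Ect2 and Prc1, with several windows, the earliest listed was used. The windows below belong to the 4 genes with the largest called changes in OE_CM against VEC_CM and to Cdc20, added after the values were seen because it changed most in TGF_VEC_CM against VEC_CM. They are written 5′ to 3′ on the gene's strand, with each CCAAT box and each of the letters TTTGAA or TTCGAA, on either strand, in capitals.
Nusap1, chr2:119618048-119618347, + strand: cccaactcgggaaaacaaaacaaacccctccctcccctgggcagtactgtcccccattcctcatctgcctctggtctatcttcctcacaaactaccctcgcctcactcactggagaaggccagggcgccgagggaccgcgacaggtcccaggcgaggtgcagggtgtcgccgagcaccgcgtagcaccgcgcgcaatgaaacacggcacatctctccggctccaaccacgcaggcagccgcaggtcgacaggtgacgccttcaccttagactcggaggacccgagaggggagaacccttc
Ect2, chr3:27153829-27154128, - strand: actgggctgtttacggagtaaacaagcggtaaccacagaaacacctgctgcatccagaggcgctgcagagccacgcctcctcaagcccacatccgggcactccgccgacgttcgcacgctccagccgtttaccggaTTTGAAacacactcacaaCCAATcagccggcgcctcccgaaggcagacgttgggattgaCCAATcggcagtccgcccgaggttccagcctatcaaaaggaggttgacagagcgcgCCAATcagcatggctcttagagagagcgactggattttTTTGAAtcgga
Ccnb2, chr9:70421505-70421804, - strand: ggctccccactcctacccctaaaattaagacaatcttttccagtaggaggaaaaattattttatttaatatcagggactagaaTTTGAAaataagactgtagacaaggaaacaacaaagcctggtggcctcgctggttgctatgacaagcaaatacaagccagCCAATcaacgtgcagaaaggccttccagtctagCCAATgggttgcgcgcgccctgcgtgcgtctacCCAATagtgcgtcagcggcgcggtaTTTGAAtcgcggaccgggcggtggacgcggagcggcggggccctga
Anln, chr9:22389157-22389456, - strand: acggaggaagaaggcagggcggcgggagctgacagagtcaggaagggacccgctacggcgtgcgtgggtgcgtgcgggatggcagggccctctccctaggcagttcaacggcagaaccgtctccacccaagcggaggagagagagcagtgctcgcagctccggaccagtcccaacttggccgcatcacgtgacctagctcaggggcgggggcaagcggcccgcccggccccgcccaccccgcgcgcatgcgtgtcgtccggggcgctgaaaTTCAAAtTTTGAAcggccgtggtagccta
Cdc20, chr4:118437294-118437593, - strand: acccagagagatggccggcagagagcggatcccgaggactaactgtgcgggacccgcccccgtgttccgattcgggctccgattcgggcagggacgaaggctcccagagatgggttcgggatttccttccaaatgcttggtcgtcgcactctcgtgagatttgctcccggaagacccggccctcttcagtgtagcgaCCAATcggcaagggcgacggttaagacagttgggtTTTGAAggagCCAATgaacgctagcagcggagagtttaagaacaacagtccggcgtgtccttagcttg

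The Ect2 and Ccnb2 windows each held 3 CCAAT boxes and 2 CHR letters (TTTGAA or TTCGAA), the Cdc20 window 2 and 1, and the Anln window 0 and 2. In the Nusap1 window neither motif was matched, which says only that these letters are not in this stretch. Over both strands TTTGAA was in 24 of the 33 member windows (72.7%), against 18.1% of 27025 windows, 1 for each gene in the table. TTCGAA was in 12.1% of member windows, against 1.57% of all. CCAAT was in 27 of 33 (81.8%), against 37.9%, and at least 2 CCAAT boxes were in 54.5%, against 12.2%. A CCAAT box together with TTTGAA or TTCGAA was in 24 of 33 (72.7%), against 7.70% of all windows. In the Ube2c window motifs overlapped each other. Matches are descriptions of sequence, and whether any factor binds there was not measured.

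Medium of hsa-miR-548ay adipocytes was compared with vector medium to see what overexpression in adipocytes does to the fibroblasts. The mitotic genes moved little and in both directions: 10 of 40 were higher and 13 lower in OE_CM than in VEC_CM (edgeR, Benjamini-Hochberg adjusted p under 0.05), with 17 not called. Of all genes tested 28.4% were called higher and 25.7% lower, so in this fit the members' shares were near the background in both directions. Their log2 fold changes ran from -0.33 to 0.17 with a median of -0.02, beside -0.01 over all genes, and none reached 2-fold in this comparison or any other. All 3 OE_CM libraries lay above all VEC_CM libraries for 10 members and below them for 14, and the groups overlapped for 16. How many of all genes tested lay apart in this way was not counted. These counts, here and in the comparisons below, therefore stand without a background. In bulk RNA a smaller share of dividing cells and less RNA per cell cannot be told apart.

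The direction of the smaller changes depended on how libraries were scaled. With upper-quartile factors in place of TMM factors, 2798 genes (19.4%) were called higher and 5059 (35.1%) lower in OE_CM. TMM gave 4083 and 3695. The members were called higher in 1 case and lower in 27 with upper-quartile factors. With limma on log2(FPKM + 1) it was 2796 and 4538 genes (19.4% and 31.5%), and 0 and 24 members. In both settings the members' share called lower was above the background and their share called higher below it. In OE_CM replicate 2 the members lay above the group mean in 35 of 40 cases. Without that library 6 members were called higher and 13 lower, against 25.7% and 23.0% of all genes. The lower calls below held with upper-quartile factors and with limma, and of the higher calls that of Ccnf alone held with upper-quartile factors (log2 0.09, adjusted p = 0.0463). Over the 6 fits that each left out a library of these groups, Cenpf, Kif23 and Pttg1 lost their calls in 4 and Bub1b and Nek2 in 3. Hmmr lost its call without VEC_CM replicate 2, Racgap1 without OE_CM replicate 3, Cenpa without OE_CM replicate 2, and Cenpe without OE_CM replicate 2 or VEC_CM replicate 1.

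Among the proteins that bundle and move spindle microtubules, Nusap1 and Hmmr were lower and the other 4 were not called. Nusap1, a microtubule-bundling protein (chromosome 2, 119618298 to 119650165, NCBI gene 108907), had 83.0, 87.9 and 80.3 CPM in OE_CM, against 104, 111 and 101 CPM in VEC_CM. The groups did not overlap, with OE_CM the lower, and the change was the largest of the 40 in this comparison (log2 fold change -0.33 ± 0.04 SE, edgeR adjusted p = 2.67e-10). Hmmr, a spindle assembly protein, changed less (log2 fold change -0.09 ± 0.028 SE, edgeR adjusted p = 0.00707). Kif11, Kif2c and Kif4, motor proteins of the spindle, and Tpx2, which activates Aurora A at microtubules, had log2 fold changes between -0.05 and -0.00.

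Of the 6 central spindle and cytokinesis genes, Ect2, Anln and Racgap1 were lower, and Kif23 was higher with TMM factors but not called with upper-quartile factors (log2 0.00). Ect2, the exchange factor that switches on RhoA at the cleavage furrow (chromosome 3, 27097222 to 27154253, NCBI gene 13605), had 111, 109 and 107 CPM in OE_CM, against 131, 127 and 127 CPM in VEC_CM. Every OE_CM library was below every VEC_CM library (log2 fold change -0.24 ± 0.033 SE, edgeR adjusted p = 2.57e-09). Anln, the furrow scaffold anillin (chromosome 9, 22331214 to 22389211, NCBI gene 68743), had 368, 380.3 and 367 CPM in OE_CM, against 430.2, 437 and 409 CPM in VEC_CM. Again the groups were apart, with OE_CM the lower (log2 fold change -0.20 ± 0.026 SE, edgeR adjusted p = 1.28e-09). Racgap1, partner of Ect2 at the central spindle, was lower by less (log2 fold change -0.07 ± 0.024 SE, edgeR adjusted p = 0.00889), and Kif23, its motor partner, stood higher with TMM (log2 fold change 0.09 ± 0.036 SE, edgeR adjusted p = 0.0338). Kif20a and Prc1, which also organise the central spindle, were not called at log2 -0.03 and 0.03.

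The B-type cyclins had opposite signs with TMM factors, though with upper-quartile factors Ccnb1 was not called. Ccnb2 (chromosome 9, 70407689 to 70421554, NCBI gene 12442) had 117, 113 and 112 CPM in OE_CM, against 129, 133 and 137 CPM in VEC_CM. OE_CM was lower without overlap (log2 fold change -0.23 ± 0.034 SE, edgeR adjusted p = 4.9e-08). Ccnb1, the main cyclin partner of Cdk1 at mitotic entry, had 285, 282 and 279.6 CPM in OE_CM, against 264, 265 and 264 CPM in VEC_CM. There OE_CM was higher without overlap (log2 fold change 0.10 ± 0.026 SE, edgeR adjusted p = 0.00123), against log2 0.01 with upper-quartile factors (adjusted p = 0.804). Cdk1 itself had 182, 182 and 181 CPM in OE_CM, against 169.6, 181 and 179 CPM in VEC_CM. Its OE_CM libraries sat above those of VEC_CM by little and it was not called (log2 fold change 0.04 ± 0.03 SE, edgeR adjusted p = 0.239).

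Ccnf, the cyclin-like substrate receptor of an SCF ubiquitin ligase, had 105, 108 and 104 CPM in OE_CM, against 85.4, 96.8 and 99.0 CPM in VEC_CM. It was higher in OE_CM without overlap (log2 fold change 0.17 ± 0.038 SE, edgeR adjusted p = 8.6e-05), with VEC_CM replicate 1 the lowest library. Cdc25b, a phosphatase that activates Cdk1 at mitotic entry, had 129, 136 and 128 CPM in OE_CM, against 144, 153 and 150.2 CPM in VEC_CM. It was lower in OE_CM without overlap (log2 fold change -0.19 ± 0.033 SE, edgeR adjusted p = 1.9e-06). Cdc25c and Ccna2, the S and G2 phase cyclin A, were not called (-0.12 and -0.01 on the log2 scale); the interval for Cdc25c, -0.26 to 0.02, is the widest of the 40.

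Mki67, the chromosome-coating protein used as a marker of cycling cells, had 1420.3, 1449.7 and 1436 CPM in OE_CM, against 1601, 1656 and 1597 CPM in VEC_CM. All OE_CM libraries were below all VEC_CM libraries (log2 fold change -0.17 ± 0.022 SE, edgeR adjusted p = 2.8e-10). Top2a had 1032, 1048 and 1040.1 CPM in OE_CM, against 1039.9, 1072 and 1041 CPM in VEC_CM, with overlapping groups and no call (log2 fold change -0.02 ± 0.022 SE, edgeR adjusted p = 0.587). The transcription factor Foxm1 had 247, 257 and 236 CPM in OE_CM, against 273, 263 and 265 CPM in VEC_CM. It was lower in OE_CM (log2 fold change -0.11 ± 0.028 SE, edgeR adjusted p = 0.000349), and OE_CM replicate 2 lay nearest to the VEC_CM libraries.

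Of the kinases, Plk1, which drives mitotic entry and spindle assembly, had 206, 217 and 206 CPM in OE_CM, against 204, 214 and 212 CPM in VEC_CM, and the groups overlapped (log2 fold change -0.00 ± 0.03 SE, edgeR adjusted p = 0.962). Aurka, the centrosomal Aurora kinase, had 163, 175 and 172 CPM in OE_CM, against 149.6, 163 and 156 CPM in VEC_CM. OE_CM was the higher by a narrow gap (log2 fold change 0.12 ± 0.033 SE, edgeR adjusted p = 0.000958), a call not kept with upper-quartile factors (log2 0.04, adjusted p = 0.339). Nek2, which separates centrosomes, was lower (log2 fold change -0.07 ± 0.028 SE, edgeR adjusted p = 0.0322). In the chromosomal passenger complex, which corrects faulty attachments, Aurkb had 131, 137 and 130.2 CPM in OE_CM, against 135, 129.6 and 131 CPM in VEC_CM, and Aurkb, Birc5 and Incenp were not called (log2 0.01, -0.01 and -0.05).

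The checkpoint kinase gene Ttk had 55.9, 57.2 and 53.0 CPM in OE_CM, against 60.9, 63.3 and 62.3 CPM in VEC_CM. The groups were apart with OE_CM the lower (log2 fold change -0.17 ± 0.045 SE, edgeR adjusted p = 0.00125). The checkpoint genes Bub1b and Bub3 were both higher by 0.09 on the log2 scale with TMM and by 0.00 with upper-quartile factors, and Bub1 and Mad2l1 were not called. Cenpa, the centromeric histone, had 144, 154 and 144 CPM in OE_CM, against 136, 138 and 137 CPM in VEC_CM. OE_CM lay above VEC_CM without overlap (log2 fold change 0.10 ± 0.037 SE, edgeR adjusted p = 0.0159); with upper-quartile factors the change was 0.02 (adjusted p = 0.713). Of the other kinetochore members Cenpe, a motor, was higher by 0.08 with TMM and at -0.01, not called, with upper-quartile factors, and Cenpf was lower (log2 fold change -0.07 ± 0.028 SE, edgeR adjusted p = 0.0424).

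Of the genes of anaphase, Ube2c had 178, 192 and 184 CPM in OE_CM, against 166, 169 and 169 CPM in VEC_CM. Espl1, the separase that cleaves cohesin, had 271, 279.7 and 276 CPM in OE_CM, against 251, 258 and 251 CPM in VEC_CM. Both stood higher in OE_CM without overlap (log2 0.14 ± 0.029 SE, adjusted p = 4.38e-05, and 0.12 ± 0.026 SE, adjusted p = 5.42e-05), and neither was called with upper-quartile factors (log2 0.05 and 0.04). Pttg1, the securin that restrains separase, was lower (log2 fold change -0.09 ± 0.038 SE, edgeR adjusted p = 0.0431). Cdc20, the activator of the anaphase-promoting complex, had 153, 160.0 and 138 CPM in OE_CM, against 154, 159 and 162 CPM in VEC_CM; the groups overlapped and it was not called (log2 fold change -0.07 ± 0.036 SE, edgeR adjusted p = 0.0813), with OE_CM replicate 3 the lowest.

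**Figure D2:**
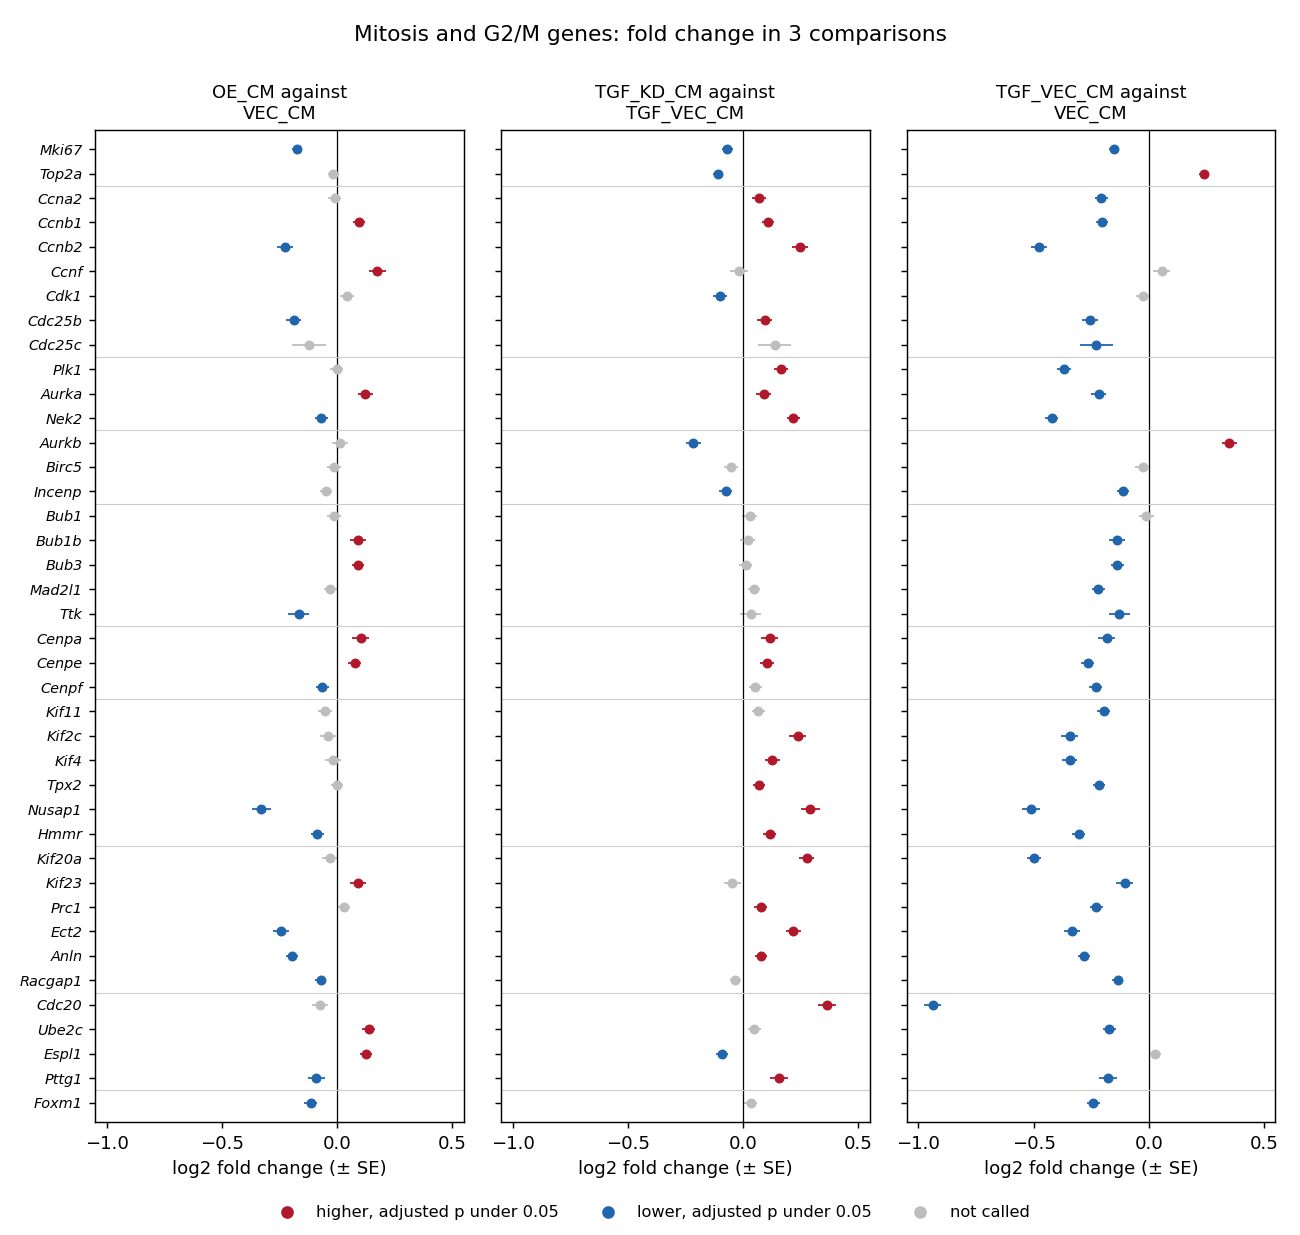
Log2 fold change (horizontal axis, with SE) of the 40 genes (vertical axis, grouped by role) in OE_CM against VEC_CM, TGF_KD_CM against TGF_VEC_CM and TGF_VEC_CM against VEC_CM, with TMM factors. Red and blue points are called higher and lower, and grey points are not called; 10 and 13 are called in the left panel (1 and 27 with upper-quartile factors), 20 and 6 in the middle and 2 and 33 in the right.

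Genes that work with the members were counted in lists of the same processes in OE_CM against VEC_CM, to be read beside 28.4% of all genes called higher and 25.7% called lower. Of 26 other kinetochore genes 2 were higher and 13 lower (median log2 -0.09), with the centromere proteins Cenpk and Cenpn at -0.31 and -0.22. Of 30 other spindle and cytokinesis genes 4 were higher and 13 lower (median -0.05), among them the spindle-pole gene Aspm (log2 fold change -0.23 ± 0.029 SE, edgeR adjusted p = 5.83e-10) and Cdca3 (-0.29). Of 15 condensin and cohesin genes 1 was higher and 6 lower (median -0.06), with the condensin subunit Ncaph at -0.24 ± 0.032 SE. Of 17 genes of the anaphase-promoting complex 6 were higher and 2 lower (median 0.05), with the chain-elongating enzyme Ube2s at 0.23 ± 0.035 SE. With upper-quartile factors, a setting added for these lists after seeing the data, the anaphase-promoting complex turned to 2 higher and 6 lower (median -0.04), and the lower calls numbered 16 for kinetochore, 21 for spindle and cytokinesis and 14 for condensin and cohesin genes. Under that scaling 19.4% of all genes were called higher and 35.1% lower (median -0.09).

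Earlier in the cycle, 8 of 31 replication and G1/S genes were higher and 6 lower in OE_CM (median 0.03), with the thymidine kinase gene Tk1 at -0.45 ± 0.029 SE and Cdc25a, an activator of Cdk2, at 0.47 ± 0.046 SE. Of 22 E2F, pocket protein and MuvB genes 6 were higher and 5 lower (median 0.02); E2f4, its partner Tfdp1 and Mybl2, the B-Myb subunit that joins MuvB, were higher by 0.44, 0.30 and 0.40. With upper-quartile factors 3 replication genes were higher and 15 lower (median -0.06), and E2F, pocket protein and MuvB genes had 6 and 8 (median -0.06). All genes shifted as well, to 19.4% higher and 35.1% lower (median -0.09). E2f4, Tfdp1 and Mybl2 were still higher (0.36, 0.22 and 0.32). The largest changes in these lists were in G1 regulators, where 3 of 15 tested were higher and 9 lower (median -0.20). The CDK inhibitor gene Cdkn2d was at -0.78 ± 0.051 SE, the cyclin genes Ccnd3 at -0.61 ± 0.04 SE and Ccng2 at -0.78 ± 0.053 SE (edgeR adjusted p = 1.29e-21, 1.63e-21 and 1.86e-20).

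In the presence of TGF-beta1, medium of adipocytes with the inhibition virus was compared with that of vector adipocytes. Here 20 of 40 members were higher and 6 lower in TGF_KD_CM than in TGF_VEC_CM, and 14 were not called, against 23.0% of all genes called higher and 20.2% called lower. The share called higher was above the background and the share called lower was near it. Log2 fold changes ran from -0.22 to 0.37 with a median of 0.07, beside -0.00 over all genes. The libraries were above without overlap for 20 members, below for 5 and overlapping for 15, with no like count over all genes. The genes called higher were led by Cdc20, Nusap1, Kif20a, Ccnb2, Kif2c, Ect2 and Nek2, and those called lower by Aurkb and Top2a.

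The count rested in part on single libraries. In TGF_KD_CM replicate 2 all 40 members lay above their group mean, by a median of 0.04 on the log2 scale, while the median over all genes tested was 0.00. Replicate 2 was also above the mean for 28 members in TGF_VEC_CM and 34 in VEC_CM. Without TGF_KD_CM replicate 2, 11 members were called higher and 8 lower, against 19.1% and 19.3% of all genes. The share called lower was again near the background, and the share called higher was nearer to it than with all libraries. Without TGF_VEC_CM replicate 3 the counts were 12 and 7, against 19.0% and 19.3%. Without the replicate 2 libraries of all groups, a choice made after seeing the data, 15 were higher and 7 lower. Of all genes 19.2% and 16.5% were then called, so the share called lower was near the background. With limma on log2(FPKM + 1), 11 were higher and 7 lower, against 18.2% and 23.6% of all genes. Upper-quartile factors gave 14 higher and 8 lower, against 20.1% and 23.1%. Aurka, Ccna2 and Tpx2 lost their calls in 5 of the 6 fits that left out a library of these groups, Cenpa and Prc1 in 4, and Anln and Cdc25b in 3. Cenpe lost its call without TGF_KD_CM replicate 2 or TGF_VEC_CM replicate 3, Kif4 without TGF_KD_CM replicate 2 and Incenp without TGF_KD_CM replicate 3.

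**Figure D3:**
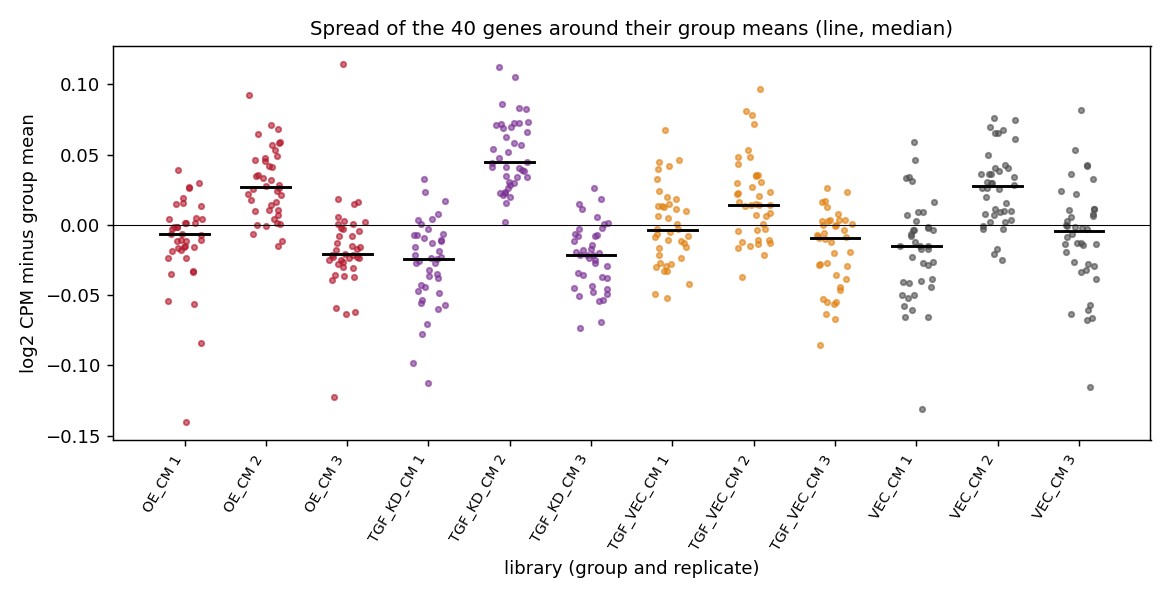
Log2 CPM minus the group mean (vertical axis) of each of the 40 genes in each of the 12 libraries (horizontal axis, group and replicate number). Points are genes and lines are medians; TGF_KD_CM replicate 2 has all 40 points above 0 and a median of 0.04.

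Of the genes of anaphase, Cdc20 (chromosome 4, 118432901 to 118437343, NCBI gene 107995) had 105, 108 and 106 CPM in TGF_KD_CM, against 84.5, 84.0 and 79.4 CPM in TGF_VEC_CM. All TGF_KD_CM libraries were above all TGF_VEC_CM libraries, and the change was the largest of the 40 in this comparison (log2 fold change 0.37 ± 0.038 SE, edgeR adjusted p = 4.67e-11) and the only one called against a change of 1.2-fold (adjusted p = 0.0138). Of all genes tested 5.53% were called higher and 4.93% lower against a change of 1.2-fold. Pttg1 had 86.6, 92.6 and 85.4 CPM in TGF_KD_CM, against 81.6, 80.3 and 75.5 CPM in TGF_VEC_CM, the higher in TGF_KD_CM without overlap (log2 fold change 0.16 ± 0.038 SE, edgeR adjusted p = 0.000568). Espl1 was lower (log2 fold change -0.09 ± 0.027 SE, edgeR adjusted p = 0.0038), and Ube2c was not called at 0.05.

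Kif20a, a motor of the central spindle that carries Aurora B there (chromosome 18, 34624624 to 34633277, NCBI gene 19348), had 122, 127 and 124 CPM in TGF_KD_CM, against 98.7, 106 and 103 CPM in TGF_VEC_CM. The groups were apart, TGF_KD_CM the higher (log2 fold change 0.28 ± 0.033 SE, edgeR adjusted p = 8.25e-11). Ect2 had 119, 121 and 117 CPM in TGF_KD_CM, against 103, 105 and 98.2 CPM in TGF_VEC_CM, again the higher in TGF_KD_CM (log2 fold change 0.22 ± 0.033 SE, edgeR adjusted p = 7.23e-08). Prc1 and Anln were both higher by 0.08, and Kif23 and Racgap1 were not called (-0.05 and -0.03).

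Of the 6 spindle genes 5 were higher. Nusap1 had 88.1, 95.0 and 88.3 CPM in TGF_KD_CM, against 71.6, 77.9 and 71.9 CPM in TGF_VEC_CM, with no overlap (log2 fold change 0.29 ± 0.04 SE, edgeR adjusted p = 1.65e-08). Kif2c, a motor that removes tubulin from microtubule ends, had 97.8, 103 and 99.8 CPM in TGF_KD_CM, against 84.3, 85.9 and 85.1 CPM in TGF_VEC_CM, also apart (log2 fold change 0.24 ± 0.037 SE, edgeR adjusted p = 1.61e-07). Kif4, a motor on chromosome arms, had 121, 132 and 124 CPM in TGF_KD_CM, against 114, 115 and 115 CPM in TGF_VEC_CM (log2 fold change 0.13 ± 0.033 SE, edgeR adjusted p = 0.00125), and in it too every TGF_KD_CM library was the higher. Hmmr had 171, 179.5 and 174 CPM in TGF_KD_CM, against 159, 162 and 163 CPM in TGF_VEC_CM (log2 fold change 0.12 ± 0.028 SE, edgeR adjusted p = 0.000497). Tpx2 was higher by 0.07 with overlapping groups, and Kif11 was at 0.07 (adjusted p = 0.0584).

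The mitotic kinases Plk1, Nek2 and Aurka were each higher in TGF_KD_CM, while Cdk1 was lower and the checkpoint kinase gene Ttk was not called. Plk1 had 173, 191 and 184 CPM in TGF_KD_CM, against 163, 166 and 159.7 CPM in TGF_VEC_CM, with no overlap (log2 fold change 0.17 ± 0.031 SE, edgeR adjusted p = 7.19e-06). Nek2 had 169, 174 and 172 CPM in TGF_KD_CM, against 144, 149.6 and 148 CPM in TGF_VEC_CM, also apart (log2 fold change 0.22 ± 0.028 SE, edgeR adjusted p = 1.49e-09). Aurka was higher by 0.09. Aurkb, the kinase of the passenger complex (chromosome 11, 69045624 to 69051664, NCBI gene 20877), had 139, 155 and 139.7 CPM in TGF_KD_CM, against 167, 173 and 164 CPM in TGF_VEC_CM. It went the other way, with every TGF_KD_CM library below every TGF_VEC_CM library (log2 fold change -0.22 ± 0.033 SE, edgeR adjusted p = 2.38e-07) and TGF_KD_CM replicate 2 nearest to the other group. Incenp, its scaffold, was lower by less (log2 fold change -0.07 ± 0.027 SE, edgeR adjusted p = 0.0214), and Birc5, or survivin, was not called (-0.05).

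Both B-type cyclins were higher in TGF_KD_CM. Ccnb2 had 108, 119 and 114 CPM in TGF_KD_CM, against 93.5, 97.7 and 95.9 CPM in TGF_VEC_CM (log2 fold change 0.25 ± 0.035 SE, edgeR adjusted p = 1.21e-08), and Ccnb1 had 246, 254 and 244 CPM in TGF_KD_CM, against 232, 228 and 228 CPM in TGF_VEC_CM (log2 fold change 0.11 ± 0.026 SE, edgeR adjusted p = 0.000297); neither pair of groups overlapped. Cdk1, their kinase, had 161, 164 and 161 CPM in TGF_KD_CM, against 182, 171 and 168 CPM in TGF_VEC_CM. TGF_KD_CM was the lower without overlap (log2 fold change -0.10 ± 0.03 SE, edgeR adjusted p = 0.00511). Ccna2 and Cdc25b were higher by 0.07 and 0.09, and Ccnf and Cdc25c were not called.

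Mki67 had 1379, 1425 and 1371 CPM in TGF_KD_CM, against 1441, 1485 and 1448 CPM in TGF_VEC_CM, lower in TGF_KD_CM without overlap (log2 fold change -0.07 ± 0.022 SE, edgeR adjusted p = 0.00912). Top2a had 1134, 1188 and 1135 CPM in TGF_KD_CM, against 1214, 1256 and 1256 CPM in TGF_VEC_CM, and it too was lower without overlap (log2 fold change -0.11 ± 0.022 SE, edgeR adjusted p = 4.54e-05). Foxm1 had 229.6, 235 and 229.7 CPM in TGF_KD_CM, against 229.7, 223 and 225 CPM in TGF_VEC_CM, its groups overlapped at a small distance and it was not called (log2 fold change 0.04 ± 0.028 SE, edgeR adjusted p = 0.325). None of the 5 checkpoint genes was called (log2 0.01 to 0.05). Cenpa had 122, 139 and 132 CPM in TGF_KD_CM, against 118, 128 and 116 CPM in TGF_VEC_CM, higher with overlap between the groups (log2 fold change 0.12 ± 0.037 SE, edgeR adjusted p = 0.0101), and Cenpe was higher by 0.10.

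Among the companion lists, 11 of 26 other kinetochore genes were higher and 4 lower in TGF_KD_CM (median 0.07), and 13 of 30 other spindle and cytokinesis genes were higher and 3 lower (median 0.09), with Numa1 and Aspm, both at spindle poles, at 0.31 ± 0.025 SE and 0.35 ± 0.03 SE. Of condensin and cohesin genes 8 of 15 were higher and 1 lower (median 0.09), with the cohesin subunit Stag1 at 0.29 ± 0.029 SE. Of the anaphase-promoting complex 7 of 17 were higher and 2 lower (median 0.08), with its subunit Anapc5 at 0.37 ± 0.025 SE. Replication and G1/S genes were split, 10 higher and 8 lower of 31 (median 0.00), with the helicase subunit Mcm5 at 0.25 ± 0.026 SE. E2F, pocket protein and MuvB genes had 5 higher and 10 lower of 22 (median -0.06), with Mybl2 at -0.39 ± 0.037 SE and the repressor E2f8 at -0.33 ± 0.04 SE. Of 15 G1 regulators tested 6 were higher and 6 lower (median -0.04); the cyclin genes Ccnd1 and Ccng2 were at -0.50 ± 0.025 SE and 0.84 ± 0.049 SE.

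The addition of TGF-beta1 to vector medium can be read from TGF_VEC_CM against VEC_CM, groups that the labels place in different parts of the study, so a difference between the parts and one due to TGF-beta1 cannot be told apart. Most mitotic genes were lower: 33 of 40 members were called lower in TGF_VEC_CM and 2 higher, against 29.4% and 28.9% of all genes. Log2 fold changes ran from -0.94 to 0.35 with a median of -0.21, beside 0.00 over all genes. Libraries were below without overlap for 32 members, above for 2 and overlapping for 6, again with no like count over all genes. Between 30 and 33 members were called lower under every other scaling, filter, tool, unit and omission of a library tried. In those fits 18.2% to 31.6% of all genes were called lower. Against a change of 1.2-fold 9 remained lower (Cdc20, Nusap1, Kif20a, Ccnb2, Nek2, Plk1, Kif2c, Kif4 and Ect2) and Aurkb higher. Of all genes tested 10.8% were called lower and 14.0% higher against a change of 1.2-fold.

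The change in Cdc20 was the largest in the 40 genes. It had 84.5, 84.0 and 79.4 CPM in TGF_VEC_CM, against 154, 159 and 162 CPM in VEC_CM. The highest TGF_VEC_CM library was thus well below the lowest VEC_CM library (log2 fold change -0.94 ± 0.038 SE, edgeR adjusted p = 5.57e-26), a ratio of 0.522 between the groups. Kif20a had 98.7, 106 and 103 CPM in TGF_VEC_CM, against 139.6, 145 and 149 CPM in VEC_CM (log2 fold change -0.50 ± 0.032 SE, edgeR adjusted p = 1.66e-21). Nusap1 had 71.6, 77.9 and 71.9 CPM in TGF_VEC_CM, against 104, 111 and 101 CPM in VEC_CM (log2 fold change -0.51 ± 0.04 SE, edgeR adjusted p = 7.01e-17), and in these genes as well no libraries overlapped.

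Ccnb2 had 93.5, 97.7 and 95.9 CPM in TGF_VEC_CM, against 129, 133 and 137 CPM in VEC_CM (log2 fold change -0.48 ± 0.034 SE, edgeR adjusted p = 1.9e-19). Nek2 had 144, 149.6 and 148 CPM in TGF_VEC_CM, against 199, 200.1 and 193 CPM in VEC_CM (log2 fold change -0.42 ± 0.028 SE, edgeR adjusted p = 7.51e-21). Plk1 had 163, 166 and 159.7 CPM in TGF_VEC_CM, against 204, 214 and 212 CPM in VEC_CM (log2 fold change -0.37 ± 0.03 SE, edgeR adjusted p = 1.42e-16), and the 3 genes, a cyclin and a pair of kinases of mitotic entry, were each lower in every TGF_VEC_CM library. Kif2c and Kif4 were both at -0.34 on the log2 scale, Ect2 at -0.33 and Hmmr at -0.30. All 6 central spindle, all 6 spindle and all 3 kinetochore members were lower.

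Further falls were smaller: Anln was at -0.28, Cenpe at -0.26, Cdc25b at -0.25, Foxm1 at -0.24, Mad2l1 at -0.22, Ccna2 at -0.21, Ccnb1 at -0.20 and Mki67 at -0.15. Another 11 members, Cdc25c, Aurka, Cenpa, Cenpf, Kif11, Tpx2, Kif23, Prc1, Racgap1, Ube2c and Pttg1, were called lower with log2 fold changes between -0.23 and -0.10. Of these Kif23 lost its call in 4 of the 6 fits that left out a library, and Cdc25c lost it without TGF_VEC_CM replicate 3; the checkpoint gene Ttk, below, lost it in 3 fits. Of the checkpoint genes Bub1b, Bub3, Mad2l1 and Ttk were lower and Bub1 was not called (-0.01 ± 0.032 SE). The remaining members not called were Ccnf, Cdk1, Birc5 and Espl1, with log2 fold changes between -0.03 and 0.06.

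Aurkb and Top2a were the only members called higher in TGF_VEC_CM. Aurkb had 167, 173 and 164 CPM in TGF_VEC_CM, against 135, 129.6 and 131 CPM in VEC_CM. No libraries overlapped, and the lowest TGF_VEC_CM library was above the highest VEC_CM library (log2 fold change 0.35 ± 0.033 SE, edgeR adjusted p = 1.31e-13). Top2a (chromosome 11, 98992947 to 99024199, NCBI gene 21973) had 1214, 1256 and 1256 CPM in TGF_VEC_CM, against 1039.9, 1072 and 1041 CPM in VEC_CM, likewise apart (log2 fold change 0.24 ± 0.022 SE, edgeR adjusted p = 8.73e-15). The partners of Aurkb did not follow: Incenp was lower (-0.11 ± 0.027 SE) and Birc5 was not called (-0.03 ± 0.031 SE).

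**Figure D4:**
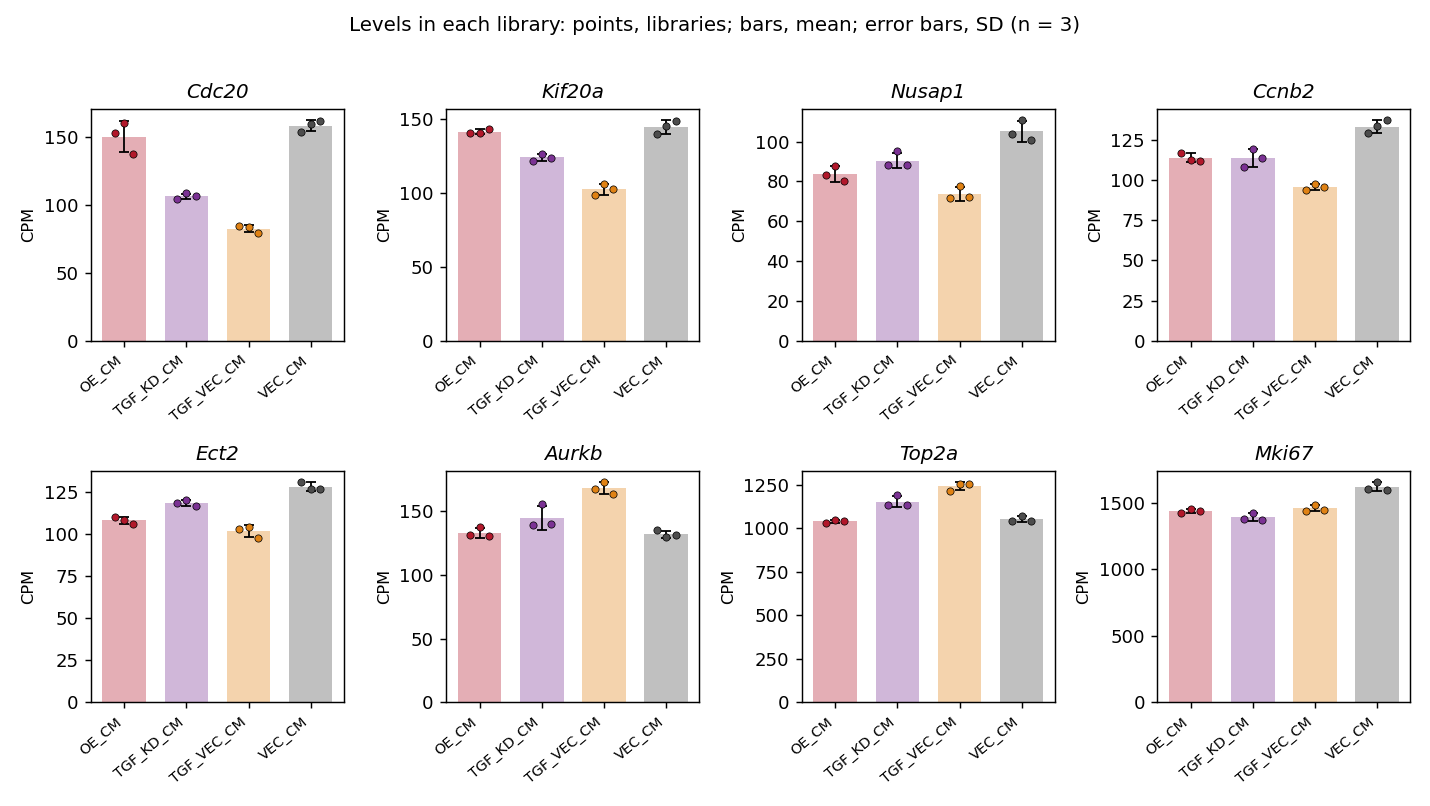
CPM (vertical axes, starting at 0) of 8 of the 40 genes in OE_CM, TGF_KD_CM, TGF_VEC_CM and VEC_CM (horizontal axes). Points are libraries, bars are means and error bars are SD (n = 3); for Cdc20 the TGF_KD_CM libraries lie between those of TGF_VEC_CM and VEC_CM, and for Aurkb the TGF_VEC_CM libraries are the highest.

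Companion genes were mostly lower in TGF_VEC_CM as well: 23 of 30 other spindle and cytokinesis genes were lower and 1 higher (median -0.17), with Aspm at -0.73 ± 0.029 SE. Of other kinetochore genes 19 of 26 were lower and 1 higher (median -0.22), with Zwilch, a checkpoint adaptor, at 0.49 ± 0.038 SE. Of condensin and cohesin genes 11 of 15 were lower and 2 higher (median -0.19), and of the anaphase-promoting complex 12 of 17 lower and 2 higher (median -0.14; Stag1 -0.44 ± 0.029 SE, Anapc5 -0.51 ± 0.025 SE). Of replication and G1/S genes 22 of 31 were lower and 4 higher (median -0.26), with Mcm5 at -0.69 ± 0.026 SE and the DNA ligase gene Lig1 at -0.67 ± 0.03 SE. The E2F, pocket protein and MuvB genes were split, 9 higher and 8 lower of 22 (median 0.01), with Mybl2 and Rb1, the retinoblastoma protein, higher by 0.48 and 0.52. Of 15 G1 regulators tested 4 were higher and 10 lower (median -0.19), with the CDK inhibitor gene Cdkn2c at -0.66 ± 0.037 SE, Cdk4 at -0.43 ± 0.027 SE and Wee1, which restrains Cdk1, at -0.53 ± 0.036 SE.

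The comparisons share groups, VEC_CM in the first and the last and TGF_VEC_CM in the second and the last, so a like or opposite direction between those pairs is partly built in and is given only as values. Cdc20 stood at -0.07 in OE_CM against VEC_CM, 0.37 in TGF_KD_CM against TGF_VEC_CM and -0.94 in TGF_VEC_CM against VEC_CM. In that order Nusap1 stood at -0.33, 0.29 and -0.51, Kif20a at -0.03, 0.28 and -0.50, and Aurkb at 0.01, -0.22 and 0.35.

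The OE_CM and TGF_KD_CM comparisons share no library, and the difference between their effects was tested in the same edgeR fit. A negative difference means a lower value for overexpression than for inhibition. It was called negative in 19 of 40 members and called positive in 6, against 26.8% and 25.6% of all genes; counted by sign alone, 28 were negative and 12 positive. With upper-quartile factors it was called negative in 26 and positive in 3, against 31.9% and 21.5% of all genes. The median difference was -0.08, beside -0.02 over all genes. Since TGF-beta1 was present in both TGF_KD_CM and TGF_VEC_CM and in neither OE_CM nor VEC_CM, opposite manipulation of the microRNA and presence of TGF-beta1 cannot be told apart here.

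Nusap1 had the largest difference, -0.33 with overexpression and 0.29 with inhibition (difference -0.62 ± 0.057 SE, edgeR adjusted p = 2.32e-14). For Ccnb2 the effects were -0.23 and 0.25 (difference -0.47 ± 0.049 SE, adjusted p = 3.64e-13). For Ect2 they were -0.24 and 0.22 (difference -0.46 ± 0.046 SE, adjusted p = 1.69e-13). These genes were lower with overexpression and higher with inhibition, and both effects passed the test on their own. For Cdc20 the difference was -0.44 ± 0.053 SE, and with the 3 genes above it also passed against a change of 1.2-fold, unlike the other 36 members. Of all genes tested 14.9% had a negative and 13.5% a positive difference against a change of 1.2-fold.

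A call in opposite directions was also reached by Anln, Cdc25b, Hmmr, Nek2 and Pttg1 (lower with overexpression and higher with inhibition) and by Espl1 (higher and lower). In OE_CM Pttg1 lost its call in 4, Nek2 in 3 and Hmmr in 1 of the 6 fits that left out a library. In TGF_KD_CM Anln and Cdc25b lost theirs in 3. Espl1 was not called in OE_CM with upper-quartile factors. How many of all genes were called in opposite directions was not counted. With TMM factors Ccnb1, Aurka, Cenpa and Cenpe were instead called higher in both comparisons. Their differences were not called (Ccnb1 -0.02 ± 0.036 SE, interval -0.09 to 0.06, and Cenpa -0.01 ± 0.052 SE, interval -0.11 to 0.09). None of these genes was called in OE_CM with upper-quartile factors. In TGF_KD_CM Aurka lost its call in 5, Cenpa in 4 and Cenpe in 2 of the 6 fits that left out a library. Mki67 was lower in both comparisons, by more with overexpression (difference -0.11 ± 0.031 SE, edgeR adjusted p = 0.00251). Aurkb, Cdk1 and Top2a had positive differences of 0.23, 0.14 and 0.09, each with a lower call with inhibition and no call with overexpression. Plk1 differed by -0.17 ± 0.043 SE and Foxm1 by -0.15 ± 0.039 SE.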

How the data were processed

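The authors deposited whole-number read counts per gene symbol, with no normalization, and FPKM values of the same genes and libraries. In the deposited FPKM values each gene carries a fixed length over all libraries (largest spread of the ratio to counts per total 0.000395%). The genome build is GRCm38, or mm10, as named in the submitters' processing notes. No source used here gives the aligner, counter or annotation.

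The counts went into edgeR 4.0.16 (R 4.3.3): filterByExpr (14400 genes kept, 10219 removed), TMM factors and a robust quasi-likelihood fit of all 12 libraries with a mean per group, two-sided, Benjamini-Hochberg adjusted over all genes tested, threshold 0.05. "Called", "higher", "lower" and "held" refer to that threshold. The common biological coefficient of variation was 0.0341. CPM values are TMM-scaled. SE is the log2 fold change over the root of its F statistic, and intervals are 95% intervals.

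The 40 genes and the 13 companion and marker lists were chosen with earlier results of these data known. Library values are given for the 12 largest called changes in each vector-controlled comparison and for Mki67, Top2a, Ccnb1, Cdk1, Plk1, Aurkb, Cenpa and Foxm1. At most 3 genes per companion list and comparison are named, by lowest p.

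Alternatives were DESeq2 1.42.0, limma 3.58.1 on log2(FPKM + 1) and log2(FPKM + 0.1), other scalings and filters, a test against 1.2-fold and omission of each library. Coordinates, gene numbers and promoter windows come from RefSeq tables of GRCm38, in which 23408 symbols and all 40 members matched. The procedure was tested on simulated data.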

Additional observations from a re-analysis of the deposited data

Results flagged for a closer look

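For 25 of the 40 genes the effect of overexpression medium (OE_CM against VEC_CM) differed from that of inhibition medium with TGF-beta1 (TGF_KD_CM against TGF_VEC_CM) by the edgeR test of the difference itself at an adjusted p under 0.05; of all genes tested 26.8% had a negative and 25.6% a positive difference by the same test. Differences are log2, the OE_CM effect minus the TGF_KD_CM effect.

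Negative differences were found among the genes of the spindle and of cell cleavage at -0.62 for Nusap1, -0.46 for Ect2, -0.31 for Kif20a, -0.28 for Kif2c, -0.27 for Anln, -0.20 for Hmmr, -0.14 for Kif4 and -0.12 for Kif11. In regulators of mitotic entry they were -0.47 for Ccnb2, -0.29 for Nek2, -0.28 for Cdc25b, -0.26 for Cdc25c, -0.17 for Plk1 and -0.15 for Foxm1. The remaining negative ones were -0.44 for Cdc20, -0.25 for Pttg1, -0.20 for Ttk, -0.12 for Cenpf and -0.11 for Mki67.

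Positive differences were 0.23 for Aurkb, 0.21 for Espl1, 0.19 for Ccnf, 0.14 for Cdk1, 0.14 for Kif23 and 0.09 for Top2a. Over the 12 fits that each left out a library, Cdc25c lost the call of its difference in 5 and Cenpf and Kif11 in 4. Kif23 lost it in 3, Ttk in 2 and Kif4 in 1. The medians over all genes of this difference were -0.02 with TMM factors and -0.09 with upper-quartile factors.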

How the results depend on the processing

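Members called higher and lower are given in that order, beside 10 and 13 in OE_CM against VEC_CM, 20 and 6 in TGF_KD_CM against TGF_VEC_CM, 2 and 33 in TGF_VEC_CM against VEC_CM, and 6 and 19 for the difference of effects. Upper-quartile factors gave 1 and 27 in OE_CM, against 19.4% and 35.1% of all genes, and 3 positive differences, against 21.5%. Cenpe in OE_CM then had a log2 fold change of -0.01 (adjusted p = 0.79), against 0.08 with TMM. With limma on log2(FPKM + 1) the OE_CM counts were 0 and 24, against 19.4% and 31.5% of all genes. With limma on log2(FPKM + 0.1) they were 0 and 25, against 19.6% and 32.4%. TGF_KD_CM had 11 higher with either, against 18.2% and 18.0%. With either, 2 differences were positive, against 22.5% and 22.2%. Against a change of 1.2-fold there were 0 and 0 in OE_CM, 1 and 0 in TGF_KD_CM, 1 and 9 in TGF_VEC_CM, and 0 and 4 for the difference. Of all genes tested the shares were 9.76% and 11.6% in OE_CM and 5.53% and 4.93% in TGF_KD_CM. They were 14.0% and 10.8% in TGF_VEC_CM and 13.5% and 14.9% for the difference. The cause of these shifts was not tested, other than the stricter null of the 1.2-fold test.

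Omitting each library in turn gave 6 to 10 and 9 to 13 in OE_CM, and 11 to 20 and 5 to 8 in TGF_KD_CM. It gave 2 to 3 and 30 to 32 in TGF_VEC_CM, and 5 to 8 and 14 to 20 for the difference. The shares of all genes were 25.6% to 26.7% and 22.7% to 23.9% in OE_CM, and 18.9% to 19.8% for either direction in TGF_KD_CM. They were 26.3% to 27.9% and 25.5% to 27.2% in TGF_VEC_CM, and 24.0% to 25.7% and 23.6% to 25.2% for the difference. Without the replicate 2 libraries of all groups, added after seeing the data, the counts were 9 and 10, 15 and 7, 2 and 32, and 6 and 15. The shares of all genes were then 24.9% and 21.7%, 19.2% and 16.5%, 25.2% and 25.9%, and 22.5% and 23.0%. DESeq2 size factors, the DESeq2 test, other low-count filters and fits of the compared groups alone kept every count within 1.5 times.

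Over all genes tested, deviations of same-numbered libraries from their group means correlated with r between -0.0285 and 0.0545 (18 pairs), so the numbers were not taken as pairs. Over the 40 members alone, replicate 2 lay above the group mean for 35 in OE_CM, 40 in TGF_KD_CM, 28 in TGF_VEC_CM and 34 in VEC_CM. With the replicate block the counts were 10 and 14, 21 and 6, 2 and 33, and 6 and 19. Of all genes the shares were 28.7% and 26.1%, 23.6% and 20.7%, 29.3% and 29.9%, and 26.1% and 27.2%. The number of libraries limits precision: with 3 a group, most SEs of members lay near 0.03 on the log2 scale, and Cdc25c, the gene with the fewest counts, had 0.072.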

Other observations

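Among the regulators that act before mitosis, 3 genes were chosen after their values were seen. Cdkn2a, whose products hold back Cdk4 and Mdm2, had at most 2 counts in any of the 12 libraries, and Cdkn2b, another inhibitor of Cdk4, had at most 5, so neither entered the test. Cdkn1c, an inhibitor of cyclin-dependent kinases, had 0, 1 and 0 counts in OE_CM, 2, 4 and 2 in TGF_KD_CM, 10, 18 and 10 in TGF_VEC_CM, and 0, 1 and 0 in VEC_CM. All TGF_VEC_CM libraries lay above all others for Cdkn1c, with means of 0.0721 CPM in TGF_KD_CM and 0.347 CPM in TGF_VEC_CM. Of the 4 groups TGF_VEC_CM alone had every library above the floor of 3 counts. Cdkn1c, unlike Cdkn2a and Cdkn2b, entered the test. It was called higher in TGF_VEC_CM than in VEC_CM (log2 fold change 4.80) and lower in TGF_KD_CM than in TGF_VEC_CM (-2.21). Both values rest on counts at or near the floor in the group with the lower level.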
